A study of Mus musculus with 3 samples.

Results

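The genes described here are those of glycolysis and of the response to low oxygen: glucose transporters, glycolytic enzymes, and targets of the hypoxia-inducible factors (HIF). They were taken from a list of 37 genes through every probe set that the platform annotation assigns to a single one of these symbols, and each gene was represented by its brightest probe set, judged by the mean of the 3 arrays. This gave 34 of the 37 genes, among 18194 genes with such a probe set on the arrays. Gapdh was read through its 3 control probe sets, since its other probe sets also name pseudogenes. Gpi1, Eno1 and Bnip3l had no probe set of their own and are not analysed here. The RNA came from embryoid bodies, which are clusters of embryonic stem cells left to differentiate in suspension, collected on day 7. All were made from stem cells of strain 129S7/SvEv Brd-Hprt b-m2 with a human BRCA1 gene, which was wild type (WT), carried M1652I (MI), or carried a substitution written R1699Q in the series design and R1669Q in the label of its array (RQ). BRCA1 is a tumour suppressor of DNA break repair, and the number of clones or cultures behind each array and the state of the mouse gene are not given in the sources used here. There was 1 Affymetrix array per genotype, so no difference below has a replicate check, no test was possible, and "higher" or "lower" describes these arrays alone. In RNA of whole bodies, fewer cells of a type and less RNA per cell cannot be told apart.

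Glycolysis splits glucose into pyruvate, which is either reduced to lactate or sent into mitochondria through the pyruvate dehydrogenase complex. Early embryonic and pluripotent cells are known for a high rate of glycolysis. When oxygen is low, the prolyl hydroxylases that mark HIF-1α for destruction slow down, the factor accumulates, and it raises transcription of glucose transporters, glycolytic enzymes, pyruvate dehydrogenase kinases and genes of mitophagy, pH control and vessel growth. Several of the steps have more than 1 isozyme, encoded by separate genes with different tissue patterns.

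All values are deposited log2 signals, and differences are of log2 signals between arrays. A difference was counted at a size of 1 or more, which is 2-fold, where the higher of the 2 arrays reached 6.31, the median of all probe sets. The median signal was 6.29 (WT), 6.35 (MI) and 6.28 (RQ). Bright genes were generally lower on the MI array: over all genes with a mean level of 11 to 12 the median of MI minus WT was -0.46, against 0.10 at levels of 6 to 7, while that of RQ minus WT at 11 to 12 was -0.05. Differences that involve MI were therefore corrected for level by subtracting a lowess trend over all genes, and for MI minus WT both the deposited and the corrected value of each member above the filter are given. The bodies also differed in their markers. Of 15 endoderm markers (such as Lama1 and Cubn), 14 were above the filter and 12 were lower by 2-fold or more in each mutant, with a summed linear signal of 18749 (WT), 2541 (MI) and 2290 (RQ). Of 12 mesenchyme markers, 7 were at least 2-fold higher in MI (summed signal 2776, 7900 and 2420 in the same order). Of 12 pluripotency markers, 7 were at least 2-fold higher in RQ (20829, 19500 and 31131) and 4 in MI after the correction. As deposited, 3 were higher in MI and 1 was lower, Pou5f1 (-1.17, and -0.77 after correction). Over all genes above the filter, 1.68% were higher and 1.49% lower in RQ, and 0.618% and 1.76% in MI after correction. Of 10 blood and endothelium markers 4 were above the filter and 0 passed 2-fold against WT (summed signal 808, 903 and 807). The 15 endoderm markers included Gata4, which was below the filter on each array (6.18, 6.12 and 5.95). The part of these markers in the differences below was not tested. All summed signals are of deposited values, so the MI sums were not corrected for level. After correction 8 of 11 pluripotency markers above the filter exceeded WT in MI, with a median of 0.21 (-0.08 as deposited).

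**Figure D1:**
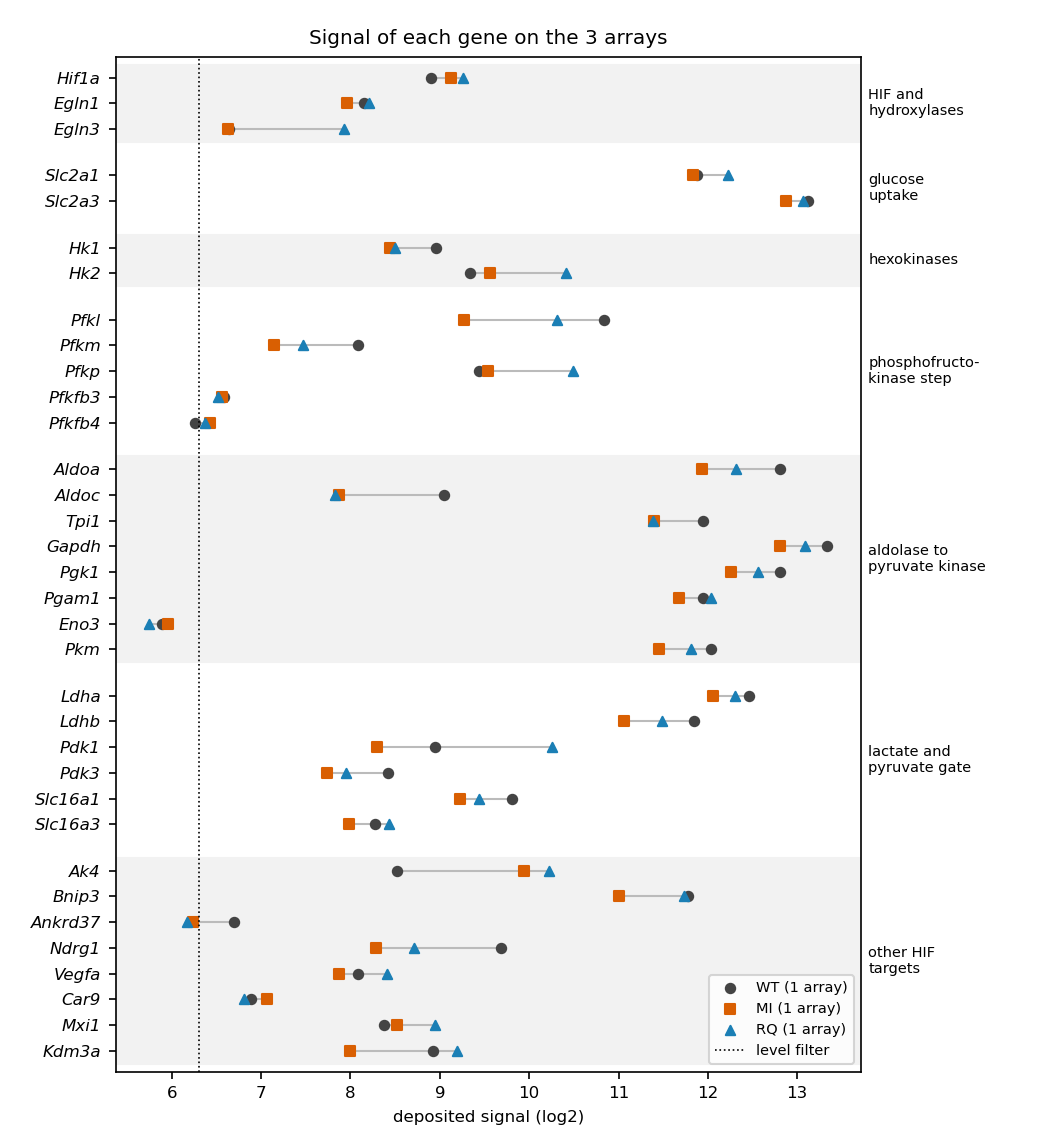
Deposited log2 signal of each of the 34 genes on the arrays of WT (circles), MI (squares) and RQ (triangles), 1 array each, grouped by role, with the level filter of 6.31 as a dotted line. Ak4 was lowest in WT, Pdk1 and Egln3 were highest in RQ, and most enzymes from aldolase to lactate dehydrogenase were highest in WT.

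Between RQ and WT the pathway did not differ as a block. Of 33 genes above the filter, 5 were at least 2-fold higher in RQ (15.2%, against 1.68% of all 12227 genes above it) and 1 was at least 2-fold lower (3.03%, against 1.49%). The median difference was -0.07, beside 0.01 for all genes. The 5 higher genes were Ak4, Pdk1, Egln3, Hk2 and Pfkp, and the lower one was Aldoc. Only Eno3 lay below the filter on all arrays, whereas Ankrd37 passed it through WT alone and Pfkfb4 through RQ alone. Brighter genes pass 2-fold more often, and with a level limit of 8, chosen after the data were seen, 4 of 28 members were higher (14.3%, against 4.98% of 3175 genes) and 1 was lower (3.57%, against 4.94%). Egln3 is the member that this limit removed from the higher group, as it read 7.92 in RQ.

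The promoters of these 5 genes are shown because HIF binds the core letters ACGTG or GCGTG. The 5 were picked by their RQ values, and a part of HIF in those values was not tested. Each run is the 250 bases before the first start that RefSeq lists (GRCm38.p6), 5′ to 3′ on the strand of the gene, and capitals mark ACGTG or GCGTG on either strand, with overlapping matches joined.
Ak4: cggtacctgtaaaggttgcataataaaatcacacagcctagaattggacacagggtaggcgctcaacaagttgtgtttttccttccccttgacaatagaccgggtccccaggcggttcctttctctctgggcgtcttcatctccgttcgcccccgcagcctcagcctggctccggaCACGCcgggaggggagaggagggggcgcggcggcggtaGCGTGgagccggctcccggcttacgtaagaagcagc
Pdk1: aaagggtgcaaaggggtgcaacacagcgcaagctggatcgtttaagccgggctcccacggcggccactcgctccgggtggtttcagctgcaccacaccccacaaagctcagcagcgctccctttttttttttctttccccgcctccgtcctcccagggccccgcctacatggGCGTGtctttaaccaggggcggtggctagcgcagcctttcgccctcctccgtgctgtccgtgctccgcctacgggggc
Egln3: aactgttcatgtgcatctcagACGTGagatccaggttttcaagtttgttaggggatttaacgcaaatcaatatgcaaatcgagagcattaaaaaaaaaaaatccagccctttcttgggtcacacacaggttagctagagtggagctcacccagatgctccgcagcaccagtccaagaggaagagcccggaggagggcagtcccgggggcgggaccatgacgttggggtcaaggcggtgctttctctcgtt
Hk2: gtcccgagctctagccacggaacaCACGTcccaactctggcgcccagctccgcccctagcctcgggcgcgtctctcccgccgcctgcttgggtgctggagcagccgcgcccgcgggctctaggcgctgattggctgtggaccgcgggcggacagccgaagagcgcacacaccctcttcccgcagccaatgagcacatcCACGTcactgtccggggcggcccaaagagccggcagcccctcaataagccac
Pfkp: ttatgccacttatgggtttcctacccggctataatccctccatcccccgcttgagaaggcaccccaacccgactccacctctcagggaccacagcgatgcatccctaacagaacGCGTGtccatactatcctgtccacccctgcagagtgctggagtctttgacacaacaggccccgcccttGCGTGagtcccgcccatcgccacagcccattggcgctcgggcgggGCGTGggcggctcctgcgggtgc

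They lie at chr4:101419039-101419288 (Ak4, plus strand), chr2:71872974-71873223 (Pdk1, plus strand), chr12:54203875-54204124 (Egln3, minus strand), chr6:82774455-82774704 (Hk2, minus strand) and chr13:6648772-6649021 (Pfkp, minus strand). Pfkp held 3 matches, the outermost starting 136 bases before the start, and Ak4 and Hk2 held 2 each. Pdk1 had a single match 78 bases before its start and Egln3 had one at 229. The same was done for a pair of members that were lower than WT in the mutants.
Pfkl: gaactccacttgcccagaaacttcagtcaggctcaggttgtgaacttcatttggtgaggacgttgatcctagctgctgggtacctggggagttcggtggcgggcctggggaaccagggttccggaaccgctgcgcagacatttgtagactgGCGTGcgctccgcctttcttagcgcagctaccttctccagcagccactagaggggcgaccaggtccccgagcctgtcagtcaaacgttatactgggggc
Aldoc: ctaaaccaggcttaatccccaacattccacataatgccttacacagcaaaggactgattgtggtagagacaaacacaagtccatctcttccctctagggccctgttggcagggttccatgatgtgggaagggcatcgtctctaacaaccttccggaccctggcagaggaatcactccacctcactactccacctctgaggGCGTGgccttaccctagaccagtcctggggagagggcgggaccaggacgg

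Pfkl lies at chr10:78009808-78010057 (minus strand) and Aldoc at chr11:78322823-78323072 (plus strand), and each held 1 match, at 99 and 50 bases before the start. Over the 32 members with a promoter in the table, 26 held a match (81.2%), against 38.6% of 27025 genes. The list was made up of glycolysis genes and HIF targets, so this share describes the list and not these arrays. Members had a median of 15 CG dinucleotides in this window and all genes a median of 6, and among promoters with at least 10 of them the shares were 84% of 25 members and 64.2% of 10328 genes. The 6 members with no match before the first listed start were Aldoa, Hk1, Tpi1, Pkm, Mxi1 and Vegfa. Further starts, which were not scanned, are listed for Aldoa and Mxi1 (3 starts each) and for Hk1, Pkm and Vegfa (2 each). Of these 6, Aldoa, Hk1, Tpi1 and Pkm were below WT in RQ, while Mxi1 and Vegfa were above it. Members with a match also lay on both sides of WT in RQ, such as Pfkl below and Pfkp above. A match is a description of sequence, not a bound site, and no difference between higher and lower members was tested. Ndrg1 and Slc2a3 were not matched.

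Of the oxygen sensing genes, Hif1a, the regulated subunit of HIF-1, read 8.90 (WT), 9.12 (MI) and 9.26 (RQ). The RQ value was thus 0.36 above WT, 1.28-fold. Egln3, a prolyl hydroxylase that is itself a HIF target, read 6.64, 6.63 and 7.92 with its brightest probe set. RQ stood 2.43-fold above WT there, while MI lay within 0.02 of WT as deposited and at -0.11 after correction. The other Egln3 probe set read 6.55 (WT), 6.20 (MI) and 7.30 (RQ). As deposited, its RQ value was 0.75 above WT, inside 2-fold, and 1.09 above MI, and MI minus WT was -0.35. The WT and MI readings of both Egln3 probe sets were near the filter. Egln1, the main prolyl hydroxylase, read 8.15, 7.96 and 8.20 with its brightest probe set, a difference of 0.05 in RQ. Its other probe set gave 7.59, 7.77 and 8.78, which is 1.19 higher in RQ, so the Egln1 probe sets did not give the same answer.

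With their brightest probe sets, the glucose transporters showed small differences. Slc2a1, which encodes the basal transporter GLUT1, read 11.88 (WT), 11.83 (MI) and 12.23 (RQ), and its 3 probe sets were all above WT in RQ. Slc2a3, the high-affinity transporter GLUT3, read 13.12, 12.87 and 13.06 with its brightest probe set, close to WT in RQ. Its 4 probe sets were split, from -0.09 to 0.63 in RQ minus WT. In RQ minus MI, as deposited, the same probe sets ran from 0.19 for the brightest one to 1.97.

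At the first kinase steps the isozymes stood on opposite sides of WT in RQ. Hk2, the inducible hexokinase that docks on mitochondria, read 9.33 (WT), 9.56 (MI) and 10.41 (RQ) (2.12-fold above WT), whereas Hk1, the widely expressed hexokinase, read 8.95, 8.44 and 8.50 (-0.46). Of the phosphofructokinases, which commit sugar to glycolysis, the platelet form Pfkp read 9.44, 9.54 and 10.49 (2.08-fold above WT). The liver form Pfkl read 10.83, 9.27 and 10.32, and the muscle form Pfkm read 8.09, 7.14 and 7.46, which is -0.52 and -0.63 in RQ. Each of these steps therefore had 1 gene past 2-fold on the higher side and its partners below WT. The Hk2 value rests on 1 probe set. The 3 probe sets of Pfkp differed by 0.61, 1.05 and 1.38. Pfkfb3 and Pfkfb4, bifunctional enzymes that set the level of the activator of phosphofructokinase, lay between 6.25 and 6.59 on every array, near the filter, and their differences were not read. The other Pfkfb3 probe set differed by -0.49 in RQ and -0.75 in MI.

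From aldolase to pyruvate kinase, 6 of 7 genes above the filter were below WT in RQ, most by less than 1.5-fold, with a median of -0.24 as deposited and -0.13 after correction for level. The exception was the mutase Pgam1 (11.94 (WT), 11.68 (MI) and 12.04 (RQ)). Aldoc, the brain form of aldolase, read 9.04, 7.87 and 7.82 and was 2.33-fold lower in RQ than in WT. Both mutant arrays were low for it, within 0.05 of each other. That reading depends on 1 probe set that can match several transcripts, since the other Aldoc probe set was below the filter and differed by -0.22. Aldoa, the main aldolase outside liver and brain, read 12.81, 11.93 and 12.31 (-0.50), and its 5 probe sets were all lower in RQ. Tpi1, which interconverts the triose phosphates, read 11.94, 11.40 and 11.38 (-0.56). These were the largest of the remaining shifts in this stretch. All probe sets of Aldoa and Tpi1, and that of Pgam1, can also match several transcripts. Gapdh (13.34, 12.81 and 13.09), Pgk1 (12.80, 12.26 and 12.56) and Pkm (12.03, 11.45 and 11.81) differed by -0.24, -0.24 and -0.22 in RQ. Eno3, the muscle enolase, read 5.90, 5.96 and 5.75, below the filter.

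At the end of the pathway Pdk1 stood apart from the other genes in RQ. Pdk1, a kinase that shuts the pyruvate dehydrogenase complex and is a known HIF target, read 8.95 (WT), 8.29 (MI) and 10.25 (RQ). RQ was 2.47-fold above WT and MI was below it. Pdk3, a second kinase of the same complex, read 8.42, 7.74 and 7.95 (-0.46 in RQ) and so lay on the side of the lactate enzymes. Ldha and Ldhb, the subunits of lactate dehydrogenase, read 12.46, 12.06 and 12.30, and 11.85, 11.06 and 11.49, which is -0.16 and -0.35 in RQ. The monocarboxylate transporter genes Slc16a1 (9.81, 9.23 and 9.43) and Slc16a3 (8.28, 7.99 and 8.43), which carry lactate across the membrane, differed by -0.38 and 0.15.

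Targets of HIF outside glycolysis were mixed in RQ. Ak4, a mitochondrial adenylate kinase, read 8.52 (WT), 9.95 (MI) and 10.22 (RQ) and was 3.24-fold above WT in RQ, the largest difference of the 34 genes. Ndrg1, a stress and differentiation gene, read 9.68, 8.29 and 8.71, just short of 2-fold lower (-0.973, and -1.003 after correction for level, which counts it). WT was the extreme array for both, low for Ak4 and high for Ndrg1. Mxi1, a MYC antagonist, read 8.38, 8.52 and 8.95 (0.57), and the histone demethylase gene Kdm3a read 8.92, 7.99 and 9.20 (0.27). Bnip3, a mitophagy receptor, read 11.78, 11.01 and 11.73, within 0.05 of WT in RQ. Vegfa, the vessel growth factor, read 8.08, 7.87 and 8.41 (0.33), but its other probe set differed by -0.51. Ankrd37 (6.70, 6.24 and 6.18) and Car9, a surface carbonic anhydrase (6.89, 7.07 and 6.80), were too close to the filter for a small difference to be read. Of the 8 targets in this group, only Ak4 was past 2-fold in RQ as deposited. Bnip3 was bright and close to WT in RQ, while Ankrd37 and Car9 had no difference that could be read.

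**Figure D2:**
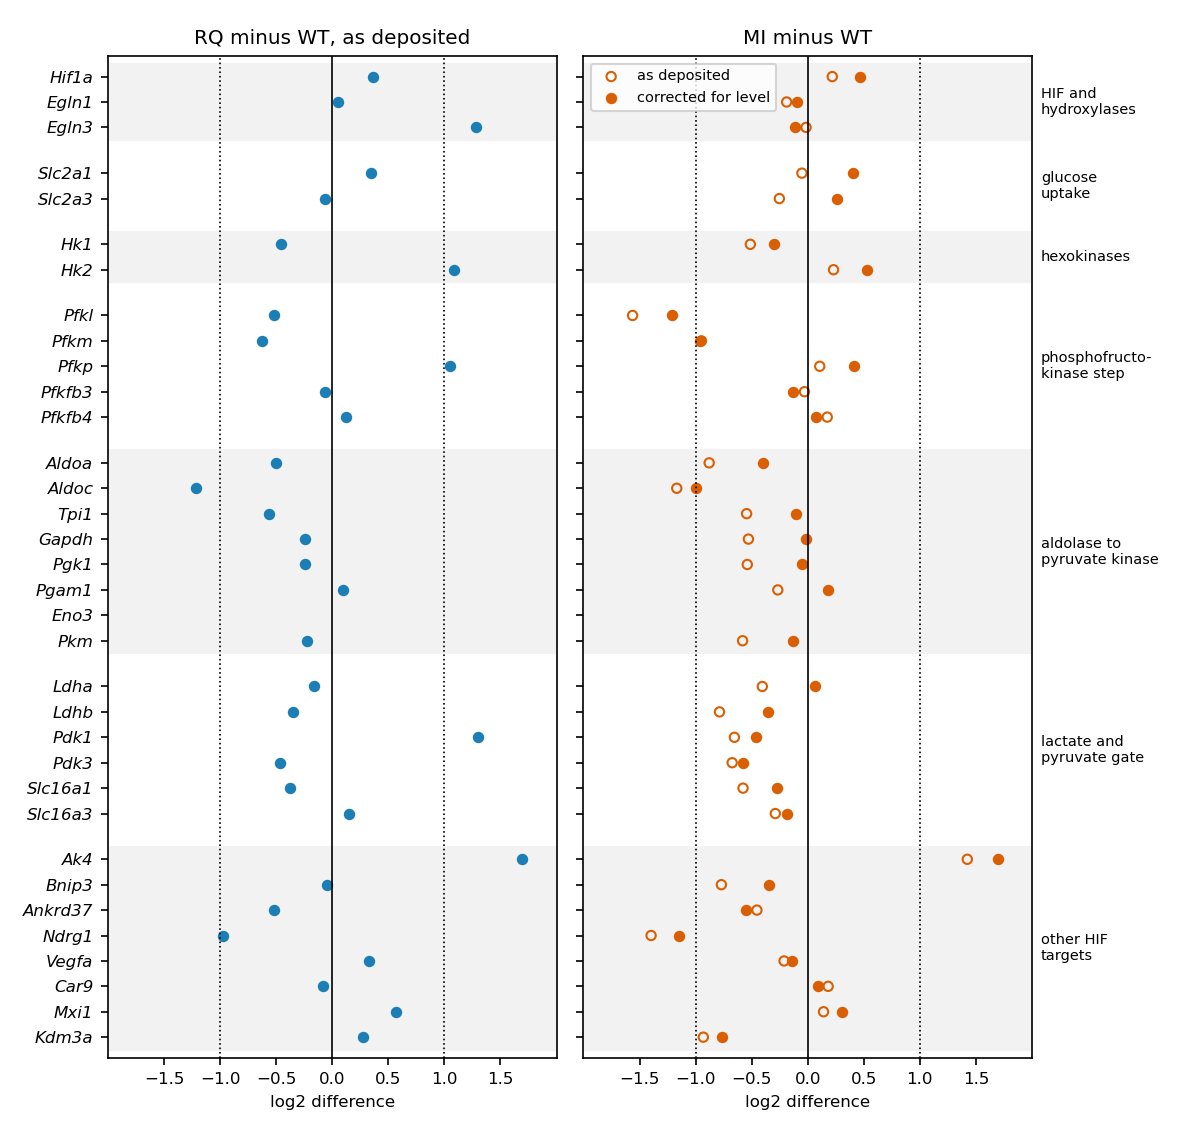
Log2 difference from WT of each gene above the filter, RQ on the left as deposited, MI on the right as deposited (open) and corrected for level (filled), with dotted lines at 2-fold. In RQ 5 genes lie beyond the right line, while in MI only Ak4 does and Pfkl, Ndrg1 and Aldoc reach the left line.

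In MI the members past 2-fold were partly those of RQ, with Ak4 higher and Aldoc lower in both mutants. Of 33 genes above the filter, 1 was at least 2-fold higher than in WT after correction for level (3.03%, against 0.618% of 12787 genes) and 3 were at least 2-fold lower (9.09%, against 1.76%). The median was -0.13, beside 0.00 for all genes. The higher gene was Ak4 and the lower ones were Pfkl, Ndrg1 and Aldoc. The deposited differences gave the same 1 and 3 members, against 0.516% higher and 2.44% lower over all genes. With the level limit of 8 these were 1 of 28 (against 2.34%) and 3 of 28 (10.7%, against 6.09%). MI and RQ are compared with the same WT array, so a gene that was extreme on that array appears in both comparisons.

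Ak4 was 1.42 above WT in MI as deposited and 1.70 after correction, the latter equal to 3.25-fold. Pfkl was the lowest member, at -1.56 as deposited and -1.21 after correction (2.31-fold lower), and its other probe set above the filter gave -1.40 as deposited. Ndrg1 was at -1.40 and -1.15, with 5 probe sets from -1.67 to -0.82. Aldoc was at -1.17 as deposited, and its corrected value sits on the 2-fold limit itself. Next to these lay Pfkm (-0.95 and -0.96) and Kdm3a (-0.93 and -0.76), just inside 2-fold.

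The correction decides how the main enzymes read. From aldolase to pyruvate kinase, the deposited MI signal was below WT for 7 of 7 genes above the filter (median -0.55), and after correction the median was -0.10 with Pgam1 above 0. Gapdh moved from -0.53 to -0.01, Pgk1 from -0.54 to -0.05 and Ldha from -0.41 to 0.07. These signals lie at levels where the median of all genes was lower on the MI array, so they stood within the trend of that array. Aldoa (-0.88 and -0.40) and Ldhb (-0.79 and -0.36) lay below it. Slc2a1 turned sign with the correction, from -0.05 to 0.40. Slc2a3 went from -0.25 to 0.26 with its brightest probe set, but the corrected value was -0.18 with the mean of its probe sets and -0.29 when multi-transcript probe sets were left out, so its direction depends on the probe set. Another group kept to WT or above under both readings: Hif1a was at 0.22 and 0.47, Hk2 at 0.23 and 0.53, Pfkp at 0.11 and 0.41 and Mxi1 at 0.14 and 0.31. Pdk1 was at -0.65 and -0.46, Pdk3 at -0.67 and -0.58, and Bnip3 at -0.77 and -0.34. The remaining genes of this end of the pathway, Slc16a1 (-0.58 and -0.27) and Slc16a3 (-0.29 and -0.19), lay below WT as well. So did Hk1 (-0.51 and -0.30), Tpi1 (-0.55 and -0.10), Pkm (-0.58 and -0.13), Egln1 (-0.19 and -0.10) and Vegfa (-0.21 and -0.14). Pgam1 moved from -0.27 to 0.18. The genes close to the filter were Ankrd37 (-0.45 and -0.55), Pfkfb3 (-0.03 and -0.13), Pfkfb4 (0.17 and 0.08) and Car9 (0.18 and 0.09).

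**Figure D3:**
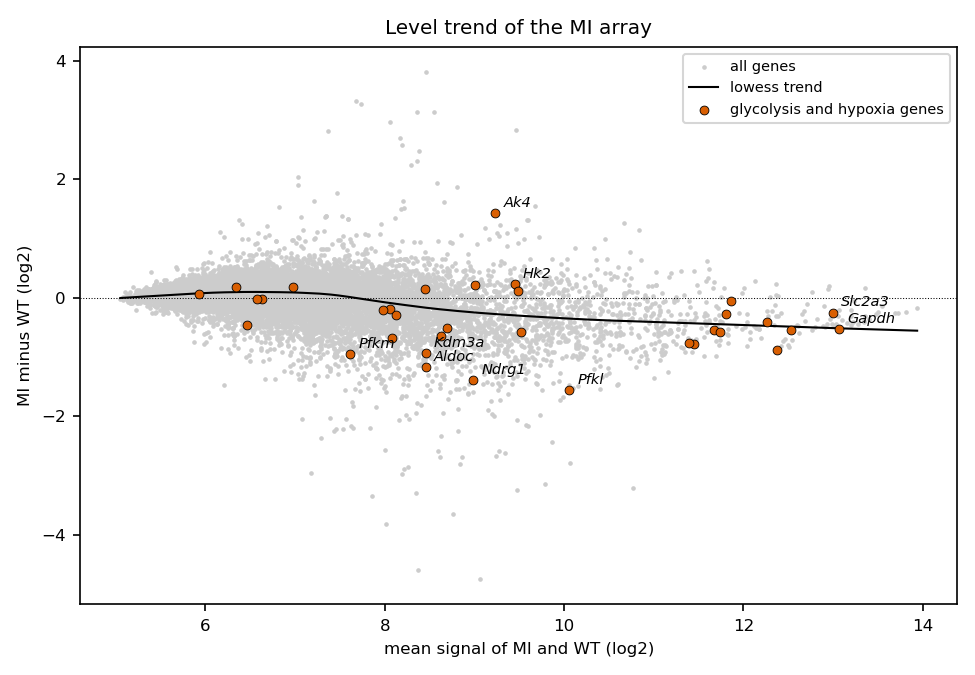
MI minus WT (log2) against the mean log2 signal of the 2 arrays for all genes (grey) and for the glycolysis and hypoxia genes (orange), with the lowess trend as a line. The trend falls below 0 at high signal, Gapdh lies on it, Ak4 lies above it, and Pfkl, Ndrg1 and Aldoc lie below it.

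RQ and MI were also set against each other directly. Of 32 members above the filter, 2 were at least 2-fold higher in RQ after correction for level (6.25%, against 1.14% of 12801 genes) and 0 were lower (against 0.617%), with a median of 0.06 beside -0.00 for all genes. No test stands behind the 0. The higher genes were Pdk1 (1.96 as deposited, 1.63 after correction, 3.09-fold) and Egln3 (1.30 and 1.33, 2.51-fold). As deposited, Kdm3a (1.20) and Pfkl (1.04) joined them, which made 4 higher (against 1.98%) and 0 lower (against 0.508%), and they were at 0.94 and 0.69 after correction. With the level limit of 8, Pdk1 remained as 1 of 25 (4%, against 3.15%) and 0 were lower (against 2.13%). Ak4, Aldoc and Ndrg1, whose signals lay far from WT in both mutants, differed between the mutants by -0.09, -0.16 and 0.17 after correction. These comparisons reuse the 3 arrays, so they are not separate evidence.

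Other probe sets of the same genes, which the choice of the brightest one did not use, could be read for 20 genes. In RQ minus WT, 35 of 40 such probe sets had the sign of the brightest one, and in MI minus WT 36 of 40 had it. Where the brightest one differed by at least 0.5, the sign was shared by 19 of 20 in RQ and 23 of 25 in MI. All differences in this paragraph are as deposited. Bright genes were generally lower on the MI array, so a shared lower sign in MI says little about the gene itself. Probe sets of 1 gene read the same RNA on the same array and are not replicates. For Ak4, 2 probe sets gave 1.51 and 1.70 in RQ, while 2 dimmer ones gave 0.49 and -0.03. For Pdk1, 3 probe sets gave 1.30, 1.001 and 0.74. In MI the probe sets of Pfkp lay on both sides of WT, from -0.88 to 0.36, and those of Slc2a3 ran from -1.34 to -0.25.

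**Figure D4:**
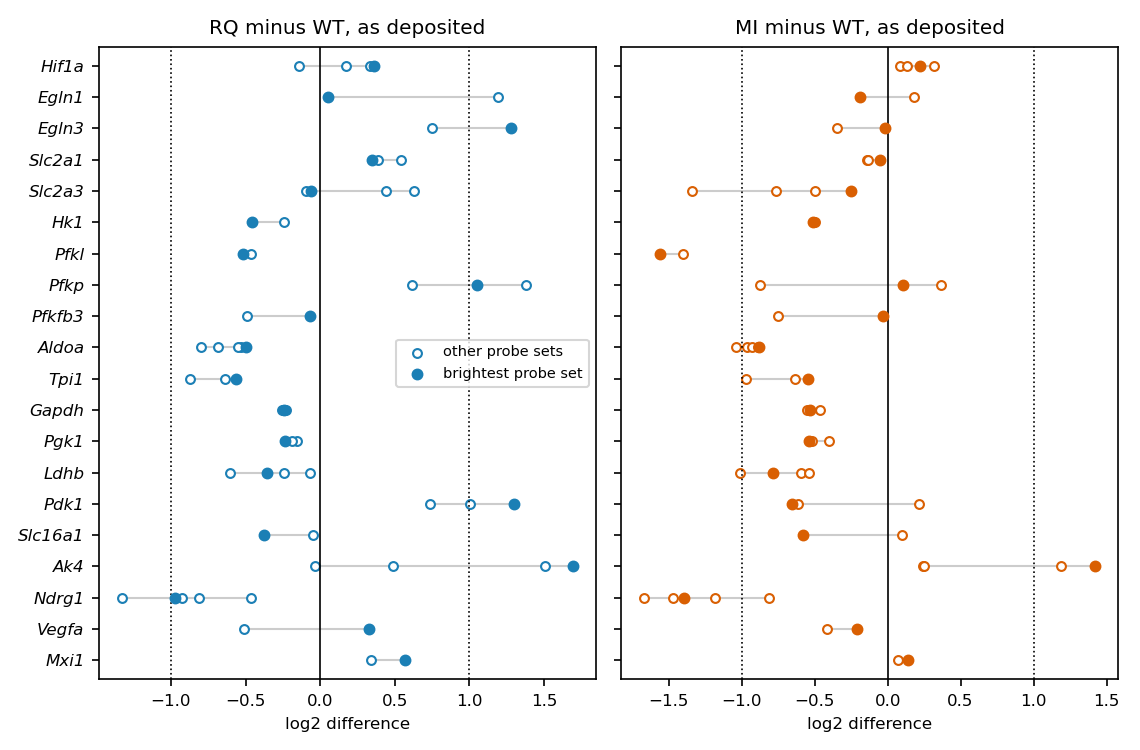
Log2 difference from WT of every probe set above the filter for the 20 genes with more than 1, in RQ (left) and MI (right), as deposited, with the brightest probe set filled and dotted lines at 2-fold. Probe sets of Gapdh, Pgk1 and Pfkl lie close together, whereas those of Ak4, Egln1, Slc2a3 and Pfkp are spread.

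In the neighbouring metabolic pathways 0 or 1 gene per list was past 2-fold in either direction, counts too small to set apart from the shares over all genes (1.68% higher and 1.49% lower in RQ, 0.618% and 1.76% in MI). Among 18 other glycolysis and gluconeogenesis isozymes above the filter, 0 were at least 2-fold higher and 1 lower in each mutant. The lower one was Hkdc1, a hexokinase-like gene (7.17 (WT), 6.11 (MI) and 6.14 (RQ)), which passed the filter through WT alone. The neuronal enolase Eno2 read 6.40, 6.95 and 6.18. Tigar, a phosphatase that opposes glycolysis, was 0.45 above WT in RQ, but near the filter (6.30 in WT and 6.75 in RQ). The ADP-dependent glucokinase gene Adpgk was 0.42 above WT in RQ. Of 9 genes of the pyruvate dehydrogenase complex and its regulators, which include the other kinases Pdk2 and Pdk4, 0 passed 2-fold in RQ or, after correction, in MI. Its subunit gene Pdha1 was the farthest (10.10, 9.00 and 9.26, which is -0.84 in RQ and -0.80 in MI after correction, but past 2-fold there as deposited, at -1.10), and the pyruvate carrier gene Mpc1 was 0.68 higher in RQ. Pcx (pyruvate carboxylase) was at -0.49 in MI after correction (-0.39 as deposited), and Pdhx at 0.27 in RQ. None of 13 pentose phosphate and glycogen genes passed 2-fold. Among them Tkt, transketolase, was at -0.77 in RQ and at -0.64 in MI after correction (-0.99 as deposited). Pgls was at -0.62 in RQ and at -0.94 in MI after correction (-0.93 as deposited). Rpe was 0.70 higher in RQ than in MI after correction (0.82 as deposited), and the glycogen phosphorylase Pygl was 0.46 above WT in RQ. Of 15 enzymes of the tricarboxylic acid cycle, 1 was 2-fold lower in MI, the succinate dehydrogenase subunit Sdhc (8.56, 7.41 and 8.38). The others named by the rule, Idh3b (-0.74), Sdhd (-0.60) and Idh3a (0.59), lay inside 2-fold in RQ, and the list's median was 0.06 in RQ and -0.04 in MI after correction.

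Of the HIF genes outside the 37, Plod2, P4ha1 and Cited2 were at least 2-fold lower in both mutants. Of 31 other HIF targets above the filter, 0 were at least 2-fold higher than WT in either mutant and 3 were lower in each (5 in MI as deposited), beside the shares of all genes given above (1.68% higher and 1.49% lower in RQ, 0.618% and 1.76% in MI). In RQ 18 of the 31 were above 0, and the medians were 0.07 in RQ and -0.00 in MI after correction. Rbpj, the Notch pathway transcription factor (0.94), and Bhlhe40, a transcriptional repressor (0.83), were the members of the list nearest to 2-fold higher in RQ. The lower genes were Plod2 (11.08 (WT), 8.65 (MI) and 9.98 (RQ)), P4ha1 (9.98, 8.54 and 8.47) and Cited2 (8.96, 7.66 and 7.39). Plod2 and P4ha1 encode hydroxylases that modify collagen in the endoplasmic reticulum, and Cited2 encodes a competitor of HIF for its coactivator. P4ha2, a further collagen hydroxylase, was just short of 2-fold lower in RQ (-0.999) and at -0.63 in MI after correction (-0.82 as deposited). Beside them stand the endoderm markers, which include the collagens Col4a1 and Col4a2 and were lower on the same arrays; their part in these differences was not tested. Of 9 other oxygen sensing genes, which share Cited2 with the previous list, Epas1, encoding HIF-2α, read 7.47 (WT), 6.09 (MI) and 7.43 (RQ). MI minus WT was -1.47 after correction (-1.37 as deposited). Only Epas1 of these 9 genes had an RQ signal at least 2-fold above MI (1.42 after correction, 1.33 as deposited). Over all genes that share was 1.14% after correction and 1.98% as deposited, and 1 gene is too few to set apart from it. The MI reading of Epas1 was below the filter, so the sizes of both differences are uncertain. Against WT, 2 of the 9, Epas1 and Cited2, were at least 2-fold lower in MI (against 1.76% of all genes after correction). Siah1a (-0.65 after correction, -0.56 as deposited) and Vhl (-0.56 and -0.47), which encode ubiquitin ligase components that act on hydroxylases and on HIF, were lower in MI within 2-fold.

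**Figure D5:**
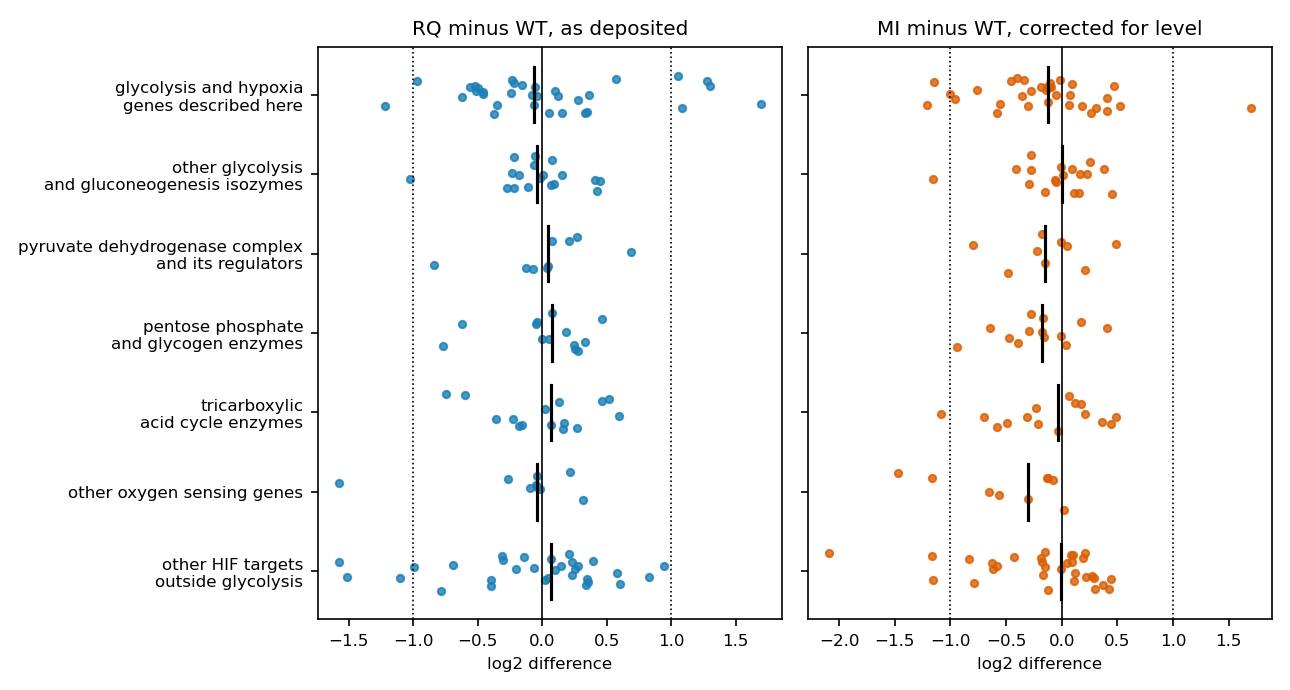
Log2 difference from WT of each gene above the filter (points, with random vertical offset) in the 34 genes described here and in 6 neighbouring lists, RQ as deposited (left) and MI corrected for level (right), with medians as black bars and dotted lines at 2-fold. Points beyond the right line occur in the top row alone, and the medians of all lists lie between -0.30 and 0.08.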

How the data were processed

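Total RNA (6 ug) from embryoid bodies of day 7 was hybridized to 1 Affymetrix mouse array per genotype, per the labels. The authors deposited log2 signals of 45101 probe sets. The submitters' processing notes name Partek and RMA, without version or order, and no source used here gives further steps. Raw scans and detection calls were not analysed here, and having 3 arrays in all limits precision. Of the probe sets, 34948 with 1 symbol in the platform annotation were used (932 have several symbols, 9211 none); the 64 control probe sets were left out except 3 of Gapdh. The identifiers of all 78 member probe sets matched RefSeq symbols (GRCm38.p6). Differences with MI were corrected by lowess over all genes (span 0.3, 3 iterations; statsmodels 0.14.6, Python 3.11.15). The correction was tested on data simulated with a straight trend and as many genes raised as lowered. MI minus WT had neither, so that test does not show that the correction suits these arrays. With 1 array a group no test was run. All members are given; from each neighbouring list the 4 genes with the largest difference are named. Genes named beyond this, such as Gata4, Pdk2, Rbpj and Bhlhe40, were chosen after their values were seen. The members and lists were chosen with earlier results of these data known. Alternatives concerned correction, scaling, filter, probe sets and fold limit.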

Additional observations from a re-analysis of the deposited data

How the results depend on the processing

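With 1 array per genotype no array could be left out, and no paired analysis was possible because no genotype has a second array. Of 466 values of single genes under other corrections, scalings or probe sets, 455 kept their side of the 2-fold limit. Another 7 fell short of it (all with means of probe sets), 4 newly reached it and 0 past it changed sign. Most of the 466 belong to genes inside 2-fold, so the 455 says little about the genes counted. The 7 were values of Ak4, Aldoc, Pdk1 and Pfkl. Sign changes inside 2-fold, such as Slc2a1 in MI, count as kept. Aldoc and Pfkl gave no value without multi-transcript sets. For RQ against WT, the count of higher members was 3 with means of probe sets and 1 at 3-fold, against 5. The count of lower members, 1, was 2 after correction for level, 0 with means of probe sets, 0 when multi-transcript probe sets were left out, 3 at 1.5-fold and 0 at 3-fold, and the median was 0.12 without those probe sets. For MI against WT, the higher count was 0 with means of probe sets. The lower count, 3, was 1 with means and 1 without multi-transcript sets, 5 at 1.5-fold and 0 at 3-fold, and the median was -0.45 without correction. For RQ against MI, the higher count, 2, was 4 without correction, 1 with means, 5 at 1.5-fold, 1 at 3-fold and 1 with the level limit of 8, and the median was 0.34 without correction and 0.17 without multi-transcript sets. Means of probe sets include dim ones (Ak4 0.72 and Pdk1 0.76 in RQ). Dropping multi-transcript sets left 25 members above the filter against WT and 24 between the mutants. The causes of the other shifts were not tested. Over all genes, higher and lower counts in MI were 79 and 225 with the correction and 66 and 312 without it, and in RQ against MI 146 and 79 with it and 253 and 65 without it. Medians were said to have moved past 0.1 and counts past 1.5 times. Signal over background is unknown for genes near the filter, such as Pfkfb4 and Car9. The level limit of 8 was chosen after seeing the data.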
